A study of Mus musculus with 40 samples.

Results

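The 10 genes described here encode enzymes of the citric acid cycle, and were chosen as the array rows whose Entrez identifier maps to 1 of 10 symbols. They are Cs, Idh2, Idh3a, Idh3b, Idh3g, Ogdh, Dlst, Suclg1, Fh1 and Mdh2, and they make up 10 of the 16475 genes of the array. All 10 were on the array, each with 1 probe set, and all 10 passed the filter on low signal, a mean signal over 20 across the arrays, which 6479 genes passed.

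Gene expression was measured in the gastrocnemius and the quadriceps of 20 male mice on 40 Affymetrix mouse arrays, so that both muscles of a mouse had an array of their own. The study asked how the 2 muscles differ and whether a high fat diet changes that difference. The 4 groups hold 10 mice each: gastrocnemius of mice on a high fat diet (HFD), quadriceps of the same HFD mice, gastrocnemius of mice on a low fat diet (LFD), and quadriceps of the same LFD mice. All mice were of the strain that the labels spell C56BL/6J, aged 20 weeks. All of them, HFD mice included, had been moved to a low fat run-in diet at 9 weeks of age for 3 weeks before the 8 weeks of HFD or LFD, and they were fasted before the muscles were taken. The extraction protocol in the labels speaks of quadriceps for all 40 arrays, whereas title, source and tissue give the same muscle for each array, and these were used.

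The citric acid cycle runs in the mitochondrial matrix, where it oxidizes the acetyl group of acetyl-CoA to carbon dioxide and hands the electrons to NAD and FAD for the respiratory chain. In skeletal muscle, acetyl-CoA comes mainly from pyruvate and from fatty acid oxidation, and fibers rich in mitochondria carry more of the cycle's enzymes than glycolytic fibers do. Isocitrate is oxidized in mitochondria by 2 different enzymes, the NAD-dependent heteromer built from Idh3a, Idh3b and Idh3g, and the NADP-dependent Idh2, which also supplies NADPH for antioxidant defence.

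Promoter sequence of RefSeq (build GRCm38.p6) was found for 9 of the 10 genes, all but Idh3a. The 250 bases before the annotated start are shown for Idh2, which stood apart from the other enzymes in what follows, and for Cs, Dlst and Suclg1, whose signals varied together from mouse to mouse. Each is read 5′ to 3′ along the gene, and capitals mark a GC box (GGGCGG) or a CCAAT box (CCAAT), both read on either strand. The windows lie at chr7:80115351-80115600 on the minus strand for Idh2, and on the plus strand at chr10:128337477-128337726 for Cs, chr12:85110583-85110832 for Dlst and chr6:73248255-73248504 for Suclg1.
Idh2: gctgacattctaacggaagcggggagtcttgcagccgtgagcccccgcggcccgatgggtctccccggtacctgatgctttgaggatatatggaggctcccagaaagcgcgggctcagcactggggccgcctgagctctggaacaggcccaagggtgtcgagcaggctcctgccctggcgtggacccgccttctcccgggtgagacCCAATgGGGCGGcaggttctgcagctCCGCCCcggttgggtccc
Cs: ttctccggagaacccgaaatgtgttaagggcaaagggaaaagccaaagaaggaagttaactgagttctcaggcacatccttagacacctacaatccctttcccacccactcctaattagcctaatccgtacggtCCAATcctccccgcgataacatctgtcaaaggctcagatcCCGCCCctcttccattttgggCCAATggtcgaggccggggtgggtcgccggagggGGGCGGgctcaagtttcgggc
Dlst: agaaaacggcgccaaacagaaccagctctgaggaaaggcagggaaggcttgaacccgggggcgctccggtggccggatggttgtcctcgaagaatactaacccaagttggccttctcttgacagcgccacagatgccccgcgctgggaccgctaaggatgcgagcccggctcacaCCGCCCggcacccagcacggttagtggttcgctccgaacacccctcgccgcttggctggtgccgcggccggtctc
Suclg1: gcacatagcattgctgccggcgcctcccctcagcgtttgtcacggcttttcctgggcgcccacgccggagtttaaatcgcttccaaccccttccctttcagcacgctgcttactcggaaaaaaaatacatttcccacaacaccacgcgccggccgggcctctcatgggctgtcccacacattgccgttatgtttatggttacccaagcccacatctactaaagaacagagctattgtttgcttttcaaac

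The Idh2 window holds 2 GC boxes, which begin 38 and 18 bases before the start, and 1 CCAAT box at 44 bases. The Cs window holds 2 GC boxes, at 76 and 21 bases, and 2 CCAAT boxes, at 116 and 55 bases. The Dlst window holds 1 GC box at 75 bases and no CCAAT box, and the Suclg1 window holds neither. Of 32851 mouse promoter windows of 250 bases, 32.7% hold a GC box and 33.8% a CCAAT box. The core of the NRF1 element (TGCGCA, 6.43% of windows) and the half-site of the estrogen-related receptors (AAGGTCA, 4.08% of windows) were searched on both strands as well, and these letters are in none of the 4 windows. The 3 genes that varied together did not share a match to any of these 4 motifs, and a match is a description of letters only.

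Array medians were between 8.8 and 9.4, and between 38.4% and 39.5% of the genes of an array were over a signal of 20. No 2 arrays held identical values. The lowest median correlation of an array with its own group was 0.977, for the HFD quadriceps of mouse 145. All 7 fast-fiber genes, which mark skeletal muscle, had a mean over 20 in each group. The summed signal of 5 neutrophil markers was at most 33.8 on the 20 gastrocnemius arrays, but reached between 1157.5 and 12381.1 on 6 of the 10 HFD quadriceps arrays and between 724.6 and 2528.7 on 4 of the 10 LFD quadriceps arrays. On the other 10 quadriceps arrays it was at most 35.1. The limma fits that involve the quadriceps were therefore also run without the 10 arrays that carried neutrophil markers, an alternative chosen after seeing the data, and values from it are given beside several of the results. The 10 arrays left out had summed signals of 6 slow-fiber markers between 2787 and 6976, and the 10 quadriceps arrays kept between 86.5 and 4491. Wherever it is used, this alternative thus also changes the slow-fiber signal of the quadriceps arrays. Among other cells, 4 of 4 Schwann cell markers were called higher in the gastrocnemius on each diet. Of 4 tendon markers, 2 were called higher in the gastrocnemius on HFD and 1 on LFD. Over all tested genes, 3.46% were called between the muscles on HFD and 2.52% on LFD, in either direction. Of 5 adipocyte markers 1 was called lower in the gastrocnemius on HFD and 3 on LFD, and of 2 red cell markers 1 was called lower on HFD and 0 on LFD (limma, 1 of the 2 at an unadjusted p under 0.05). None of the tested macrophage or endothelium markers (2 and 3) was called between the muscles, and none had an unadjusted p under 0.05. With so few genes, the lack of calls does not set these markers apart from all tested genes.

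Idh2 was the only one of the 10 enzymes that differed between the muscles by the criteria used for all genes, a fold change over 1.3 and a false discovery rate (FDR) under 0.05 with limma. On HFD, its signal was between 1634.4 and 2315.6 in the gastrocnemius (median 2037.8), against between 936.6 and 1972.0 in the quadriceps (median 1346.0). The groups overlapped, since 6 of the 10 gastrocnemius values lay above every quadriceps value and 7 of the 10 quadriceps values lay below every gastrocnemius value. Within a mouse, Idh2 was higher in the gastrocnemius in 9 of 10 HFD mice. The exception was mouse 157, with a gastrocnemius value of 1944.1 against 1972.0 in its quadriceps, and the widest gap was in mouse 151, with 2200.0 against 936.6 in its quadriceps. The fold change was 1.43 on the scale of geometric means, or 0.51 ± 0.11 on the log2 scale (SE), with an adjusted p = 0.0033 by limma. Thus 1 of the 10 enzymes was called, beside 3.46% of all tested genes in this comparison, and by the FDR alone it was the same 1 of 10, beside 6.62%. The array averages RNA over a whole piece of muscle, so that fewer fibers of a type and less RNA per fiber cannot be told apart. Without the 6 HFD quadriceps arrays that carried neutrophil markers, the log2 fold change was 0.79 (adjusted p = 0.00012, limma). The 4 quadriceps arrays kept there had summed slow-fiber signals between 86.5 and 1618, and the 6 left out between 2787 and 4837, so that this choice of arrays also moved the slow-fiber markers.

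On LFD, Idh2 was between 1341.6 and 2343.7 in the gastrocnemius (median 1943.5), against between 790.0 and 1968.1 in the quadriceps (median 1350.8). It was higher in the gastrocnemius in 10 of 10 mice, with ratios between 1.04 in mouse 159 and 1.89 in mouse 156. The groups overlapped, with 5 of 10 gastrocnemius values above every quadriceps value and 5 of 10 quadriceps values below every gastrocnemius value. The log2 fold change was 0.45 ± 0.16 (SE, 95% interval 0.11 to 0.78), and the adjusted p = 0.117 by limma kept it from being called. By limma, 0 of 10 enzymes were called in this comparison, beside 2.52% of all tested genes, and 0 of 10 passed the FDR alone, beside 5.22%. Of the 10, Idh2 and Suclg1 (2 genes) had an unadjusted p under 0.05. The call depends on the model, and treating the 2 muscles of a mouse as a pair is only 1 of the choices that change it. Idh2 was also called with array weights and in the model of 4 groups, neither of which has a mouse term. With the mouse as a fixed block, the same fold change had an SE of 0.08 and an adjusted p = 0.0042, and with the mouse as a random block the adjusted p was 0.014. Without the 4 LFD quadriceps arrays that carried neutrophil markers, the log2 fold change was 0.60 (adjusted p = 0.0851, limma). The 6 quadriceps arrays kept there had summed slow-fiber signals between 163 and 4491, and the 4 left out between 2856 and 6976.

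**Figure D1:**
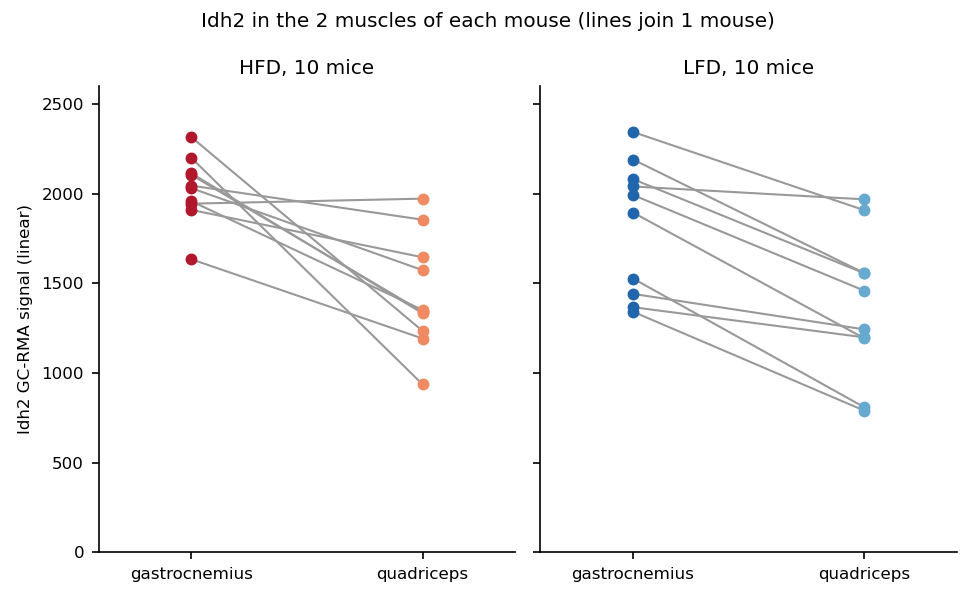
Idh2 signal (linear GC-RMA scale) in the gastrocnemius and the quadriceps of each of 10 HFD mice and 10 LFD mice, with a line joining the 2 muscles of a mouse. The gastrocnemius is the higher one in 9 of 10 HFD mice and in 10 of 10 LFD mice, and the muscles overlap in range.

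The difference between the muscles was larger for Idh2 than for each other enzyme. Within mice, the log2 difference of Idh2 between gastrocnemius and quadriceps exceeded that of the other 9 enzymes by means between 0.48 (Idh3g) and 0.60 (Idh3b) on HFD, and between 0.42 (Idh3g) and 0.58 (Suclg1) on LFD. It was the larger one in 9 or 10 of 10 HFD mice and in 10 of 10 LFD mice for every pair. Two-sided exact permutation tests that flip the sign within mice gave p between 0.00195 and 0.00586 on HFD and p = 0.00195 for all 9 pairs on LFD, where 0.00195 is the smallest value 10 mice allow. After Benjamini-Hochberg adjustment over the 18 comparisons the highest p was 0.00586. This comparison was chosen after the values of Idh2 had been seen, and the p-values do not account for that choice. The 9 comparisons on each diet share the same Idh2 values, so they are not separate pieces of support.

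Idh3a, Idh3b and Idh3g encode the subunits of the NAD-dependent enzyme that acts on the same substrate as Idh2, with Idh3a as the catalytic one. On HFD, Idh3a averaged 2850 ± 199 in the gastrocnemius and 2938 ± 260 in the quadriceps (SD, n = 10 each), and Idh3g averaged 4315 ± 227 in the gastrocnemius and 4226 ± 286 in the quadriceps. On LFD, Idh3a averaged 2858 ± 234 in the gastrocnemius, against 2997 ± 185 in the quadriceps, whereas Idh3g averaged 4301 ± 190 in the gastrocnemius and 4216 ± 134 in the quadriceps. None of these 4 differences was larger than the SD between mice. Idh3b on HFD was between 141.4 and 170.7 in the gastrocnemius (median 156.8), against between 148.7 and 183.6 in the quadriceps (median 167.85), a log2 fold change of -0.08 ± 0.05 (SE, adjusted p = 0.381, limma). On LFD, Idh3b was between 145.7 and 181.2 in the gastrocnemius (median 165.05), against between 149.2 and 241.2 in the quadriceps (median 158.85), and the value of 241.2 belongs to mouse 159 alone, the next being 176.5. Its log2 fold change of -0.01 on LFD was 0.05 without that mouse, and it was not called either way.

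**Figure D2:**
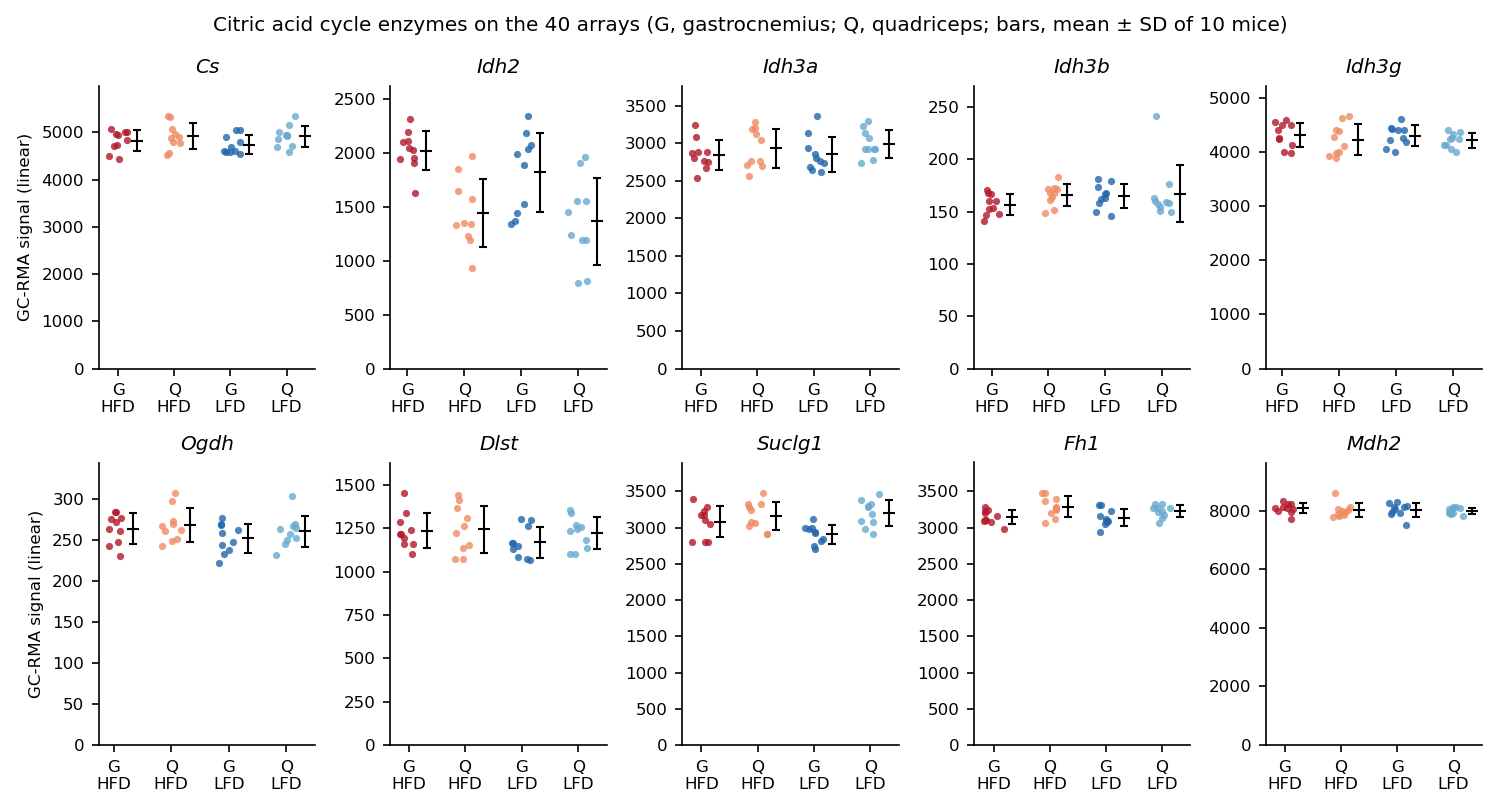
Signal (linear GC-RMA scale, each panel with its own axis from 0) of the 10 enzymes on the 40 arrays, with points for mice and bars for mean ± SD of 10 mice, in the order gastrocnemius HFD, quadriceps HFD, gastrocnemius LFD and quadriceps LFD. Idh2 has the wide spread and the lower quadriceps values, and the other 9 enzymes lie at nearly the same height in the 4 groups.

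Of the 10 enzymes, Suclg1, the alpha subunit of succinyl-CoA ligase, was the only one besides Idh2 whose 95% interval left 0 in a muscle comparison. This was not particular to Suclg1 within the cycle. Outside the 10, the LFD intervals of Sdha (-0.20 to -0.02) and Sucla2 (-0.18 to -0.01) left 0 as well, and neither gene was called. On LFD, Suclg1 was between 2704.3 and 3120.5 in the gastrocnemius (median 2929.2), against between 2906.5 and 3459.7 in the quadriceps (median 3237.4). It was lower in the gastrocnemius in 10 of 10 LFD mice, though the groups overlapped, with 4 gastrocnemius values below every quadriceps value. The log2 fold change was -0.14 ± 0.04 (SE, 95% interval -0.22 to -0.05) with an adjusted p = 0.0514 by limma, so it passed neither threshold. Over the alternative fits its adjusted p was between 0.0087 and 0.111 (0.044 with the mouse as a fixed block), and its fold change stayed under 1.3 in each. On HFD, Suclg1 was between 2795.3 and 3399.2 in the gastrocnemius (median 3141.1), against between 2915.2 and 3481.3 in the quadriceps (median 3155.7), lower in the gastrocnemius in 6 of 10 mice. There the log2 fold change was -0.04 ± 0.05 (SE, adjusted p = 0.768, limma).

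Citrate synthase, Cs, joins acetyl-CoA to oxaloacetate at the entry of the cycle, and the activity of the enzyme is widely used as a measure of mitochondrial content. The arrays measure RNA only, so the Cs signal does not give the mitochondrial content of the muscles. On HFD the Cs signal was between 4446.6 and 5070.2 in the gastrocnemius (median 4898.4), against between 4523.3 and 5342.4 in the quadriceps (median 4898.4). On LFD it was between 4551.4 and 5052.0 in the gastrocnemius (median 4650.0), against between 4577.0 and 5339.3 in the quadriceps (median 4929.2). The gastrocnemius was the lower one in 6 of 10 HFD mice and 8 of 10 LFD mice, with log2 fold changes of -0.03 ± 0.04 and -0.05 ± 0.04 (SE) on HFD and LFD.

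Ogdh and Dlst encode the first and the middle component of the 2-oxoglutarate dehydrogenase complex, which turns 2-oxoglutarate into succinyl-CoA. Ogdh averaged 264 ± 18.5 in the gastrocnemius and 268 ± 20.8 in the quadriceps on HFD, and 252 ± 17.9 in the gastrocnemius and 260.4 ± 19.2 in the quadriceps on LFD (SD, n = 10 each). Dlst averaged 1236 ± 102 in the gastrocnemius and 1245 ± 136 in the quadriceps on HFD, and 1170 ± 89.4 in the gastrocnemius and 1222 ± 90.6 in the quadriceps on LFD. For both, the muscles differed by less than the SD between mice. Fh1, which hydrates fumarate to malate, averaged 3146 ± 91.8 in the gastrocnemius and 3288 ± 141 in the quadriceps on HFD, and 3138 ± 120 in the gastrocnemius and 3228 ± 83.9 in the quadriceps on LFD. Fh1 was lower in the gastrocnemius in 8 of 10 mice on each diet, with log2 fold changes of -0.06 ± 0.04 on HFD and -0.04 ± 0.03 on LFD (SE, adjusted p = 0.366 and 0.574, limma). Mdh2, the mitochondrial malate dehydrogenase that closes the cycle, averaged 8084 ± 168 in the gastrocnemius and 8018 ± 237 in the quadriceps on HFD, and 8029 ± 233 in the gastrocnemius and 8000 ± 106 in the quadriceps on LFD.

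For the 9 enzymes other than Idh2, the log2 fold changes between gastrocnemius and quadriceps ran from -0.08 (Idh3b) to 0.03 (Idh3g) on HFD and from -0.14 (Suclg1) to 0.03 (Idh3g) on LFD. Their 95% intervals stayed between fold changes of 0.883 and 1.09 on HFD and between 0.857 and 1.102 on LFD, so that differences of 1.3-fold lie outside all 18 intervals. These intervals are for single genes and are not adjusted for their number. The median over the 10 enzymes was -0.02 on HFD and -0.04 on LFD, beside -0.02 and -0.01 over all tested genes. The plot of fold changes sets the interval of Idh2 beside those of the others.

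**Figure D3:**
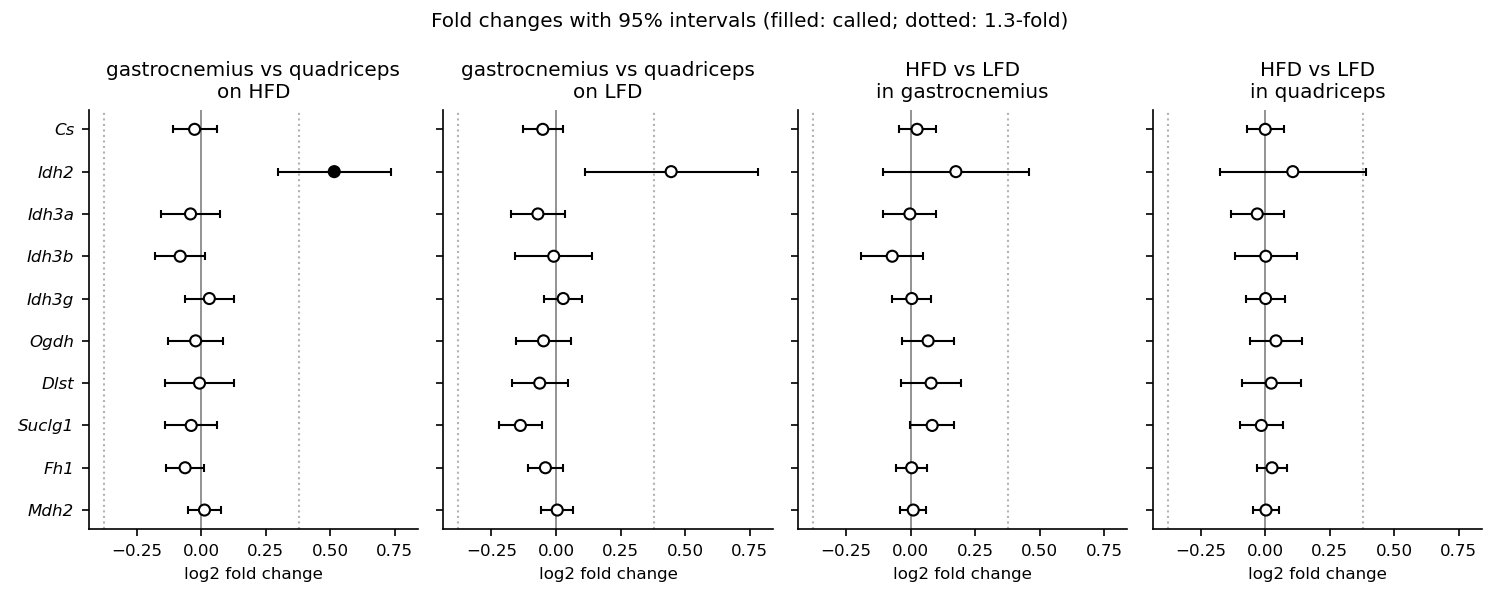
Log2 fold changes of the 10 enzymes with 95% intervals from limma, for gastrocnemius over quadriceps on HFD and on LFD, and for HFD over LFD in gastrocnemius and in quadriceps (filled point, called; dotted lines, 1.3-fold). Only Idh2 on HFD is called, with 0.51, and the other 9 enzymes lie between -0.14 and 0.08 in all 4 panels.

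No call was made for any of the 10 enzymes between the diets, in either muscle. In the gastrocnemius, the log2 fold changes of HFD over LFD ran from -0.07 (Idh3b) to 0.18 (Idh2), 0 of 10 were called by limma and 0 of 10 had an unadjusted p under 0.05, beside 0.216% of all tested genes called. In the quadriceps they ran from -0.03 (Idh3a) to 0.11 (Idh2), again with 0 of 10 called and 0 of 10 at an unadjusted p under 0.05, beside 0.0617% of all tested genes called. These limits moved with the arrays used: the highest was 0.04 without mouse 142 (0.03 for Idh2) and 0.17 without mouse 151 (Idh2), the lowest was -0.01 without mouse 151 and -0.05 without mouse 157, and without the 10 quadriceps arrays that carried neutrophil markers the 10 enzymes ran from -0.12 (Idh3a) to 0.00 (Fh1), with 0 of 10 called. The intervals of the 9 enzymes other than Idh2 stayed between fold changes of 0.876 and 1.14 in the gastrocnemius and between 0.912 and 1.103 in the quadriceps. For Idh2 they were wider, with a log2 fold change of 0.18 (95% interval -0.11 to 0.46) in the gastrocnemius and of 0.11 (-0.18 to 0.39) in the quadriceps, and these do not leave out a change of 1.3-fold. The medians over the 10 enzymes were 0.02 in the gastrocnemius and 0.00 in the quadriceps, beside -0.02 and -0.01 over all tested genes.

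A change of the muscle difference with diet was not detectable. The interaction, the muscle difference on HFD minus that on LFD, ran from -0.07 (Idh3b) to 0.10 (Suclg1) on the log2 scale, and was 0.07 for Idh2 (95% interval -0.33 to 0.47). The lowest value was -0.13 without mouse 159 (Idh3b), and without the quadriceps arrays that carried neutrophil markers the enzymes ran from -0.03 to 0.19, with 0.19 for Idh2 (adjusted p = 0.97, limma), again with 0 of 10 called. No enzyme and none of the tested genes was called (0%), while 118 of all tested genes and 0 of the 10 enzymes had an unadjusted p under 0.05 with limma. The call of Idh2 on HFD and not on LFD is thus not shown to be a difference between the diets.

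Genes of fatty acid oxidation, a main source of the cycle's acetyl-CoA, were higher on HFD in part. None of its 14 tested genes passed both thresholds, but 7 of the 14 were higher on HFD in the gastrocnemius at an FDR under 0.05 regardless of fold change, beside 0.679% of all tested genes. In the quadriceps this was 1 of 14, beside 0.185% of all tested genes. Acadl, the long-chain acyl-CoA dehydrogenase, had the smallest adjusted p. It averaged 3666 ± 147 on HFD and 2920 ± 207 on LFD in the gastrocnemius, a log2 fold change of 0.33 ± 0.05 (SE, adjusted p = 0.00014, limma), with no overlap between the diets. In the quadriceps Acadl averaged 3764 ± 381 on HFD and 3132 ± 254 on LFD, a log2 fold change of 0.26 ± 0.05 (SE, adjusted p = 0.0083, limma), and the diets overlapped. Without the 10 quadriceps arrays that carried neutrophil markers this was 0.19 with an adjusted p = 0.999. The median log2 fold change of HFD over LFD was 0.24 for the 14 genes in the gastrocnemius and 0.17 in the quadriceps. For the 10 cycle enzymes the FDR alone gave 0 of 10 in each muscle. The difference between the 2 lists was not tested.

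Neighbouring genes of the pathway gave few calls, but with such short lists this does not set them apart from all tested genes. Between the muscles, only 3.46% of all tested genes were called on HFD and 2.52% on LFD. For diet, the share called was 0.216% (gastrocnemius) or 0.0617% (quadriceps), and for the interaction it was 0%. None of the 7 tested genes for other steps of the cycle (the succinate dehydrogenase subunits, Sucla2, Suclg2 and Dld) was called in any of the 5 comparisons. Among them Sdha, the flavoprotein of succinate dehydrogenase, had the smallest adjusted p, with a log2 fold change between the muscles of -0.11 ± 0.04 on LFD (SE, adjusted p = 0.143, limma). None of the 7 tested genes of the pyruvate dehydrogenase complex and its kinases and phosphatases was called (Dlat, its acetyltransferase, -0.09 ± 0.04 on LFD, adjusted p = 0.163). Likewise, 0 calls were made among the 7 tested genes of anaplerosis (Glud1, glutamate dehydrogenase, -0.13 ± 0.04 on HFD, adjusted p = 0.0955) and the 6 tested cytosolic counterparts and carriers (Aco1, an iron-sulfur protein of the cytosol, -0.11 ± 0.08 on HFD, adjusted p = 0.514). None of the 15 tested genes of the respiratory chain was called either. Cox7a1, a muscle form of a cytochrome c oxidase subunit, was lower in the gastrocnemius on HFD, by a log2 fold change of -0.19 ± 0.05 (SE, adjusted p = 0.0135), short of 1.3-fold, and by -0.12 with an adjusted p = 0.406 without the 6 arrays that carried neutrophil markers.

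Of the 7 tested regulators, 1 was called on each diet, beside 3.46% of all tested genes on HFD and 2.52% on LFD. By the FDR alone, 2 of 7 were higher in the gastrocnemius on HFD (beside 6.62%) and 1 of 7 on LFD (beside 5.22%), the further one on HFD being Sirt5, a mitochondrial deacylase, with a log2 fold change of 0.25 ± 0.06 (SE, adjusted p = 0.0098, limma). Sirt5 was named after its values were seen. Ppargc1a, a coactivator that drives mitochondrial biogenesis, averaged 301 ± 73.2 in the gastrocnemius and 155 ± 48.2 in the quadriceps on HFD (SD, n = 10 each), a log2 fold change of 0.98 ± 0.18 (SE, adjusted p = 0.00139, limma). On LFD it averaged 277 ± 80.6 in the gastrocnemius and 178 ± 45.5 in the quadriceps, a log2 fold change of 0.61 ± 0.17 (SE, adjusted p = 0.0429). It was higher in the gastrocnemius in 10 of 10 HFD mice and 7 of 10 LFD mice, and the groups overlapped on each diet. The call on LFD was lost without any 1 of the 7 mice 142, 148, 153, 154, 155, 156 and 160 (adjusted p up to 0.111), and without the 4 quadriceps arrays with neutrophil markers (0.47, adjusted p = 0.238).

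The enzymes also differed in how much they varied between mice of a group. The pooled SD within groups on the log2 scale was 0.32 for Idh2, larger than for 88.0% of all tested genes, whose median was 0.19. It was 0.03 for Mdh2 and 0.05 for Fh1, smaller than for all but 0.0309% and 0.201% of the tested genes. Both have high signals, with means of 8084 and 3146 in the HFD gastrocnemius, whereas tested genes reach down to a mean of 20. The ranks were not taken among genes of like signal, and the part of signal level in them was not tested. The other 7 enzymes had SDs between 0.07 (Cs) and 0.13 (Idh3b), all below the median of 0.19 over all tested genes. As a coefficient of variation, Idh2 spread by 9.11% in the gastrocnemius and 21.9% in the quadriceps on HFD, and by 20.3% in the gastrocnemius and 29.4% in the quadriceps on LFD.

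The lowest Idh2 values in the quadriceps came from arrays that were also low in slow-fiber genes. The summed signal of the 6 slow-fiber markers was between 6529 and 11307 in the gastrocnemius, against between 86.5 and 4837 in the quadriceps on HFD, and between 5294 and 12142 in the gastrocnemius, against between 163 and 6976 in the quadriceps on LFD. Of the 6 markers, 5 were called higher in the gastrocnemius on each diet, beside 3.46% of all tested genes on HFD and 2.52% on LFD. The lowest Idh2 value on HFD, 936.6 in the quadriceps of mouse 151, came with the lowest sum, 86.5, and the lowest on LFD, 790.0 in the quadriceps of mouse 142, likewise with the lowest sum, 163. Mouse 143 differed from this, with a sum of 88.1 and an Idh2 signal of 1234.4 in its HFD quadriceps. Between log2 sum and log2 Idh2, Pearson's r in the quadriceps was 0.75 on HFD (p = 0.00973, permutation test, two-sided) and 0.88 on LFD (p = 0.00144), with Spearman's rho of 0.83 (p = 0.00429) and 0.78 (p = 0.0110). In the gastrocnemius r was 0.24 on HFD (p = 0.514, rho 0.07, p = 0.866) and 0.78 on LFD (p = 0.00922, rho 0.68, p = 0.0352). Without the 2 mice farthest from the median sum, r was 0.46 in gastrocnemius and 0.59 in quadriceps on HFD, and 0.80 in gastrocnemius and 0.57 in quadriceps on LFD. Of the 40 relations computed for 10 enzymes in 4 groups, 0 passed a Benjamini-Hochberg adjusted p of 0.05, and the smallest adjusted p was 0.0576, for Idh2 in the LFD quadriceps. Without the arrays that carried neutrophil markers, 4 HFD and 6 LFD quadriceps arrays remain, and these relations were not computed again. The part of fiber type in the Idh2 result was not tested.

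**Figure D4:**
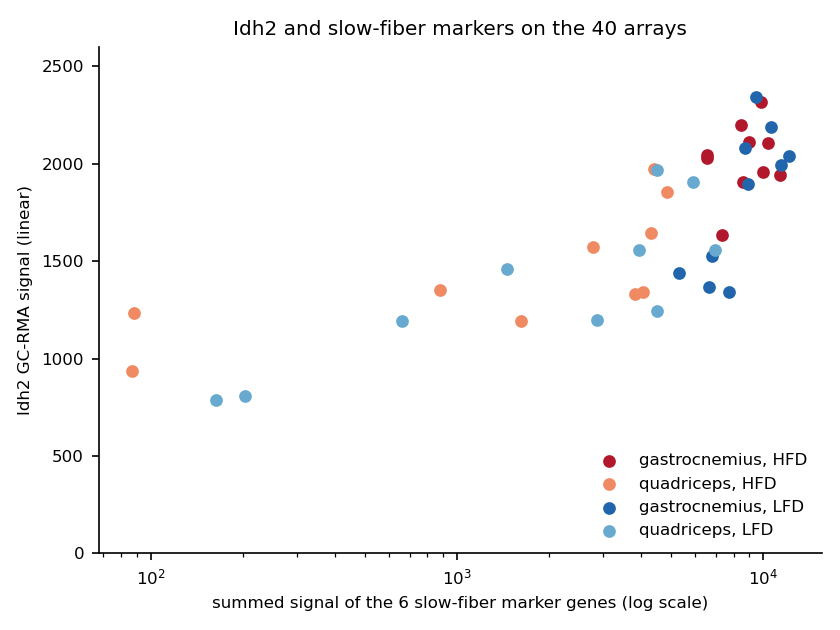
Idh2 signal (linear GC-RMA scale) against the summed signal of 6 slow-fiber marker genes (log axis), 1 point per array, colored by muscle and diet. The 2 lowest Idh2 values, 790.0 and 808.8, are LFD quadriceps arrays with sums of 163 and 204, and the gastrocnemius arrays lie at sums of 5294 or more.

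The genes whose signal deviated from the group means most like that of Idh2, over the 40 arrays, were Ldhb, the heart-type lactate dehydrogenase (Pearson r = 0.85), Coq8a, needed for ubiquinone synthesis (0.84), and Myh2, the fast-fiber marker that encodes myosin heavy chain IIa (0.83). Within single groups these r ran from 0.53 to 0.89 for Ldhb, from 0.59 to 0.93 for Coq8a and from 0.26 to 0.90 for Myh2. They are descriptions over arrays that share mice, and carry no test. Within the fast-fiber list, Myh2 is the paper's marker of type IIa fibers, which the paper describes as oxidoglycolytic. Myh2 averaged 15067 ± 1109 in the gastrocnemius and 10950 ± 2352 in the quadriceps on HFD, a log2 fold change of 0.49 ± 0.10 (SE, adjusted p = 0.0044, limma). On LFD it averaged 13791 ± 1450 in the gastrocnemius and 10383 ± 2318 in the quadriceps, 0.44 ± 0.12 (SE, adjusted p = 0.0345). Without the quadriceps arrays that carried neutrophil markers it was 0.80 on HFD (adjusted p = 4.0e-05) and 0.58 on LFD (adjusted p = 0.0258). Of the 7 fast-fiber markers, Myh2 was the 1 called on each diet, with Myh1 at -0.07 and Myh4 at -0.04 on HFD and Myh1 at -0.12 and Myh4 at -0.17 on LFD (adjusted p at least 0.24), and the median over the 7 was -0.00 on each diet. For Myh2, on LFD, the call was lost without any 1 of the 7 mice 142, 147, 148, 154, 155, 156 and 160 (log2 fold change 0.36 without mouse 142, adjusted p up to 0.0973).

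Among the other enzymes, Cs, Dlst and Suclg1 deviated together: r was 0.82 for Cs with Dlst, 0.75 for Dlst with Suclg1 and 0.67 for Cs with Suclg1, and within single groups these r were never below 0.57. Ogdh followed Cs (0.63) and Dlst (0.55), and Idh3a had a like r with Cs (0.53) and Dlst (0.55). Such r were not particular to the cycle enzymes, since other tested genes were often closer. By r with Cs, Dlst ranked 1 among the tested genes, Suclg1 145 and Ogdh 247. By r with Dlst, Cs ranked 31, Suclg1 143 and Ogdh 762. By r with Suclg1, Dlst ranked 35 and Cs 182. Idh3a and Idh3g, subunits of 1 enzyme, had an r of 0.75, between 0.68 and 0.85 within groups. Idh3b, the remaining subunit, did not follow them, with an r of -0.34 with Idh3a and 0.03 with Idh3g. Idh2 had an r between 0.06 and 0.33 with all others but Idh3b, with which it was 0.47. Within single groups the r of Idh2 varied more. It ran from -0.36 to 0.75 with Idh3a, from -0.28 to 0.79 with Idh3g and from -0.05 to 0.72 with Cs. With Idh3b it ran from -0.15 to 0.65, and with Suclg1 from -0.09 to 0.24. Of the 45 pairs of enzymes, 8 had an r over 0.5 and 7 had an r under 0, and the median was 0.25.

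**Figure D5:**
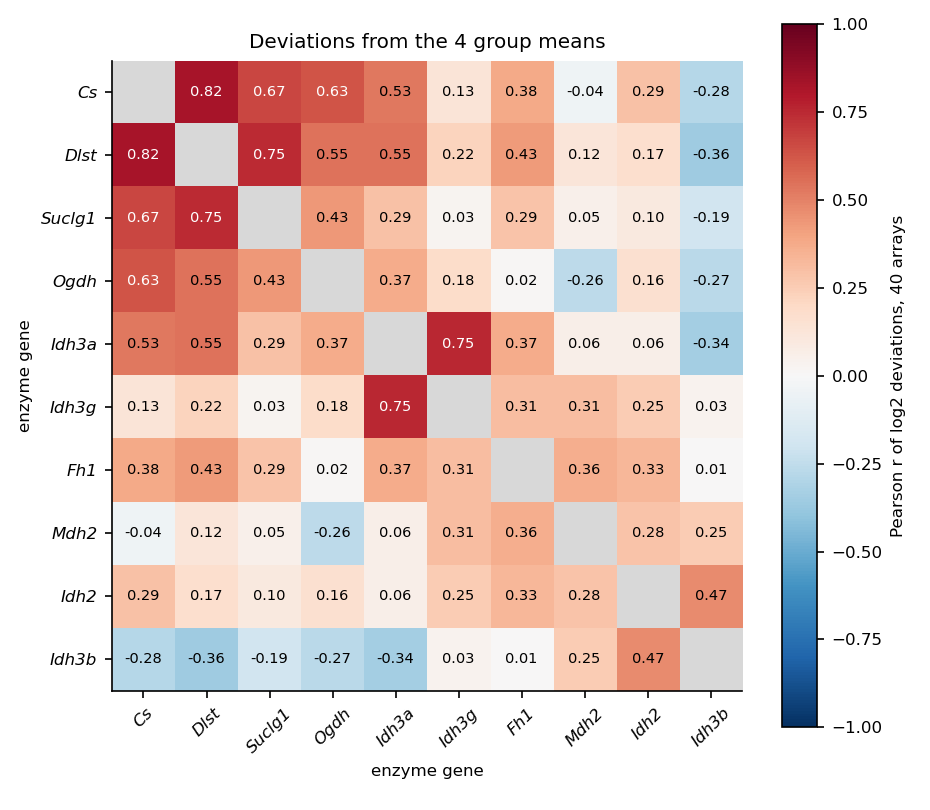
Pearson r between the log2 deviations of the 10 enzymes from the means of the 4 groups, over 40 arrays (each cell 1 pair, red positive, blue negative). Cs, Dlst, Suclg1 and Ogdh, placed side by side, have r between 0.43 and 0.82, and Idh3a has 0.53 with Cs and 0.55 with Dlst. Idh3a and Idh3g stand at 0.75, and Idh3b is at or below 0.03 with 7 of the other enzymes.

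The genes most like each remaining enzyme, over the same 40 arrays, are given as descriptions with no test. Dlst was closest to Immt of the inner membrane (r = 0.90), to Uqcc1 (0.90) and to Pdha1 of the pyruvate dehydrogenase complex (0.88), and Cs was closest to Dlst itself (0.82), Ghitm (0.81) and Fam210a (0.80). Suclg1 was closest to Sod2, the mitochondrial superoxide dismutase (0.87), Dcaf8 (0.82) and Atp5b of ATP synthase (0.82). Idh3a was closest to Sdhaf2 (0.89), Coq10a (0.87) and Slc25a11, the 2-oxoglutarate carrier (0.85), and Idh3g to Atp5e (0.85), Phb (0.83) and Prdx3 (0.82). Fh1 was closest to Acadvl (0.68), Ndufs1 (0.59) and Gfm1 (0.58), Mdh2 to D8Ertd738e (0.77), Atp5g3 (0.73) and Ndufv3 (0.72), and Ogdh to Fech (0.71), Epb41 (0.70) and Acsl1 (0.70). Idh3b was closest to Acly, the cytosolic ATP citrate lyase (0.76), Cox6a1 (0.76) and Pygl (0.74), but without the 2 arrays farthest in Idh3b the r with Acly was 0.45 and that with Pygl 0.46.

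Whether a mouse high in 1 muscle was also high in the other was examined for each enzyme and diet, 20 relations in all, on the log2 scale over 10 mice. On LFD the Pearson r was positive for 8 of 10 enzymes (median 0.31), and on HFD for 2 of 10 (median -0.23). The diets also parted over all tested genes, where limma's consensus correlation between the 2 muscles of a mouse was 0.365 on LFD and -0.0021 on HFD. This split was thus not particular to the enzymes. Idh2 on LFD had an r of 0.81 (permutation test, two-sided, p = 0.00433, adjusted p = 0.0433) and a rho of 0.83 (p = 0.00453, adjusted p = 0.0560), and r was 0.76 without the 2 mice farthest from the quadriceps median. Idh3g on LFD had an r of 0.86 (permutation p = 0.00158, adjusted p = 0.0316) and a rho of 0.82 (p = 0.00560, adjusted p = 0.0560), and r was 0.78 without the 2 farthest mice. On HFD, r was -0.20 for Idh2 (permutation p = 0.577, rho -0.43, p = 0.221) and -0.03 for Idh3g (p = 0.936, rho -0.08, p = 0.838), with r of 0.09 and 0.06 without the 2 farthest mice. The LFD relations of Idh2 and Idh3g were the 2 of 20 below an adjusted p of 0.05 by r, and 0 were by rho. The difference between the diets in these relations was not tested.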

How the data were processed

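Gastrocnemius and quadriceps RNA from 20 mice was hybridized to Affymetrix mouse arrays. Per the methods, the authors assigned probes anew so that every Entrez gene had its own probe set, then applied quantile normalization and GC-RMA, for which no version was found. The deposited tables hold intensity on a linear scale. Of 16539 probe sets, 64 controls were left out, and those with a mean over 20 (6479, 39.3%) were tested as log2 intensity with limma 3.58.1 in R 4.3.3. Muscles were compared within each diet and without a mouse term, since the methods name none. Diet effects and the interaction are contrasts of a model of 4 groups. P-values were adjusted by Benjamini-Hochberg over all tested genes. A call requires more than 1.3-fold and an FDR below 0.05 (FDR only for the interaction). The labels number the mice, so that each pair of arrays shares an animal. The median correlation of their deviations from the group means was -0.07 on HFD and 0.39 on LFD, and the mouse as a block was an alternative. Other alternatives were signal filters, a pseudocount, normalizations, variance models, array weights, thresholds, sample sets and leaving out each mouse. Permutation tests used 100000 resamples in Python 3.11.15 (numpy 2.4.6), or were exact where so named. Fits were tested on simulated data. The 10 genes, the lists and the tests were chosen with earlier results of these data known. The text names all 10 enzymes, up to 4 called genes of each further pathway list (or the 1 of smallest adjusted p), and the 3 tested genes most like each enzyme. Fiber markers were named outside this rule. Of the gene probe sets, 16229 had a RefSeq symbol (GRCm38.p6), 28 a platform symbol only and 218 none. The number of arrays limits the precision. Pdp1, Got2, Mpc1, Atp5c1, Plin1, Retnlg, Hba-a1 and Hbb-b1 were not analysed here, and 1 further gene of the lists is not reported here.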

Additional observations from a re-analysis of the deposited data

Results flagged for a closer look

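Single arrays far from the others of their group were looked for among the 10 enzymes, the 7 named pathway genes and Myh2, in 72 groups of 10 values. An array is listed where its gap to the nearest other value exceeds 0.466 of the group's range, which chance gives in about 1 in 20 groups, and 5 arrays met this. Idh3b was 241.2 in the LFD quadriceps of mouse 159, with the other 9 mice between 149.2 and 176.5. Among the LFD quadriceps, this is the array with the largest sum of adipocyte markers, 3053.4 (group median 1612.9), and a link was not tested. Ogdh was 303.7 in the LFD quadriceps of mouse 154, with the others between 231.2 and 269.3. Mdh2 was 8614.0 in the HFD quadriceps of mouse 145, with the others between 7794.4 and 8141.5, and this is the array with the largest sum of neutrophil markers, 12381. Mdh2 was 7504.6 in the LFD gastrocnemius of mouse 142, with the others between 7885.3 and 8285.5. Ppargc1a was 283.4 in the LFD quadriceps of mouse 141, with the others between 127.1 and 201.6. Leaving out the mouse concerned led to no call for Idh3b, Ogdh or Mdh2 between the muscles, and Ppargc1a on LFD was 0.69 without mouse 141 (log2, adjusted p = 0.0209, limma).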

How the results depend on the processing

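Over 50 results, 1239 values were recomputed under alternatives: 1173 kept their direction and their side of the threshold (or stayed within 1.5 times for counts), 23 turned their direction, 22 counts moved further, 4 calls were gained and 17 were lost. Idh2 on HFD was called under all 13 alternatives and without each mouse in turn (0.44 without mouse 151 to 0.57 without mouse 157). Idh2 on LFD was 0.39 to 0.49 without each mouse, never called there, and became the 1 enzyme called with array weights (0.47), with the mouse as a fixed or a random block (0.45 each) and in the model of 4 groups (0.45). Pairing the muscles of a mouse through the block changed no other call of an enzyme. Turned directions concern values near 0. With quantile normalization repeated, Mdh2 was -0.028 on HFD and -0.026 on LFD, Idh3b was 0.0012 on LFD and Suclg1 was 0.00076 for diet in the quadriceps. With arrays scaled to their median, Dlst was 0.0062 on HFD and Idh3b 0.0038 on LFD, and with array weights Dlst was 0.018 on HFD. Without the quadriceps arrays that carried neutrophil markers, Cs was 0.025, Idh3a 0.0397, Ogdh 0.013 and Dlst 0.0601 on HFD, and Idh2 was -0.016 for diet in the quadriceps. Without each mouse, the muscle difference ranged on HFD from -0.046 to 0.00046 for Cs, from -0.044 to 0.022 for Ogdh and from -0.056 to 0.027 for Dlst, and on LFD from -0.031 to 0.049 for Idh3b and from -0.0015 to 0.018 for Mdh2, and the interaction of Idh2 from -0.011 (without mouse 151) to 0.128. Genes called numbered 429 (muscle, HFD), 338 (muscle, LFD), 44 (diet, gastrocnemius) and 12 (diet, quadriceps) by the FDR alone. With array weights the diet calls were 46 in the gastrocnemius and 2 in the quadriceps. For diet in the quadriceps there was 1 call in a separate fit of that muscle and 0 without the arrays with neutrophil markers. Without each mouse the diet calls were 9 to 19 in the gastrocnemius and 1 (without mouse 145) to 10 (without mouse 144) in the quadriceps. Where not stated, the cause was not tested. Genes with a mean signal at or under 20 were not tested.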
